A study of Mus musculus with 2 samples.

Results

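The Hox genes of mouse dorsal skin were described from every non-control array probe that the scanner files name Hoxa, Hoxb, Hoxc or Hoxd followed by a number. This rule took 38 genes, 50 probes and 59 spots, of 27576 genes and 41165 probes on the array. The RefSeq gene table lists 39 mouse Hox genes, and Hoxc11 had no probe of that name here. Of the 38 genes, 26 had 1 probe and 12 had several.

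The study profiled the full thickness of dorsal skin from C3H/HeN males aged 61 days, using 1 Agilent single-colour array for each of 2 groups. Hair growth (anagen) had been started by depilation, and on day 4 the mice received 1 µg of FGF18 protein under the skin in one group and phosphate-buffered saline (PBS) in the other. Skin was taken 24 h after the injection, 5 days after depilation, so both groups share the strain, sex, age and depilation. FGF18 is a secreted fibroblast growth factor, and the series asked which transcripts its local delivery affects. The PBS sample's title names telogen, the resting phase, while its source name and hair cycle entry name anagen, as do those of the FGF18 sample. The labels mention 3 mice without a number per group, and RNA was pooled by group according to the design text, although the extraction protocol describes separate extraction. With 1 array of pooled RNA per group no difference below has a replicate check, no test was made, and precision is limited by the number of arrays.

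Hox genes encode homeodomain transcription factors that set positional identity along the body axis. In mammals they lie in 4 clusters, and genes at the corresponding place in each cluster form a paralog group with a shared number. Low-numbered groups act in the head and neck, middle groups in the trunk and the highest numbers in the lower trunk, tail and distal limbs. Adult fibroblasts of human skin keep Hox patterns that reflect their body site, and Hoxc13 is known for its role in hair shaft formation in mice.

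The promoters of 3 members are shown because they stand for the 3 outcomes met below: Hoxa6 had the lowest FGF18 over PBS ratio of the measured members, Hoxd4 the highest, and Hoxd13 was not well above background on either array. The sequences are the 250 bases before the RefSeq start on assembly GRCm38.p6, from chr6:52208673-52208922 on the minus strand for Hoxa6, chr2:74721728-74721977 on the plus strand for Hoxd4 and chr2:74667975-74668224 on the plus strand for Hoxd13. They are those of the reference assembly, not of the C3H/HeN mice. Capitals mark matches, on either strand, to TATAAA, the letters of a TATA box. The letters of a combined Hox and Pbx site, TGATNNAT, were searched in the same way, and these 3 windows hold no match to them.
Hoxa6: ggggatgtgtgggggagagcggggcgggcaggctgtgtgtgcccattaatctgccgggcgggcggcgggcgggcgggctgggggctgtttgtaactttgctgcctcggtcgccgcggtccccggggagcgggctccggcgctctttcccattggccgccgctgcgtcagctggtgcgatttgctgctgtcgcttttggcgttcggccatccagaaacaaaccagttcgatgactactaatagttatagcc
Hoxd4: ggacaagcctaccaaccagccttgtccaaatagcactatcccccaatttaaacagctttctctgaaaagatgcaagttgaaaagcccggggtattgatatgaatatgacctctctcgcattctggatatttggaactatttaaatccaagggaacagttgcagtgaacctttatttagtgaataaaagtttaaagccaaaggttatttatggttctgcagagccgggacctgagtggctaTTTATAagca
Hoxd13: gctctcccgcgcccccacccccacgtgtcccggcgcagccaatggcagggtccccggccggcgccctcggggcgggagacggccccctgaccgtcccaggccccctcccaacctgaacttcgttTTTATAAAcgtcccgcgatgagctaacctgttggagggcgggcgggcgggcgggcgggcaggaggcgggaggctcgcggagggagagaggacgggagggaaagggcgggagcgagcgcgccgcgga
The Hoxd4 window has 1 TATAAA match close to the start, the Hoxd13 window has 2 that overlap each other, and the Hoxa6 window has 0. Over all 32851 windows of this length, 12.4% hold TATAAA and 7.68% hold TGATNNAT. The Hoxa6 window holds 24 CpG dinucleotides, the Hoxd4 window 3 and the Hoxd13 window 31, against a median of 6 over all windows. An entry exists for 22 of the 38 members (57.9%), too few for a comparison over all of them. The promoters and motifs were chosen after the array values were seen, and a match is a description of letters only.

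Hox transcripts of the middle paralog groups were measured in skin, and few of the highest-numbered groups. A probe was counted as measured where at least 0.5 of its spots were marked well above background by the scanner software, and a gene where at least 1 probe was. Both arrays measured 29 of the 38 genes (76.3%), against 60.2% of all genes on the array, and they were the same 29 on each array. All 27 genes of paralog groups 2 to 10 were measured, against 1 of 8 in groups 11 to 13, which was Hoxc13. The same flag also passed 3 of 6 internal-organ genes that should be absent in skin, among them Alb at 78 with FGF18 and 64.8 with PBS. Hoxd3 (51.4 with FGF18 and 46.8 with PBS) and Hoxd10 (67.6 with FGF18 and 54.5 with PBS) read no higher than that. On the FGF18 array alone, Hoxa6 (68.9), Hoxc8 (67.7) and Hoxc10 (76.8) also read below Alb. For such dim members the flag alone does not show a transcript in skin.

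By cluster, 9 of 11 Hoxa genes, 8 of 10 Hoxb genes, 7 of 8 Hoxc genes and 5 of 9 Hoxd genes were measured. The 9 genes that were not were Hoxa11, Hoxa13, Hoxb1, Hoxb13, Hoxc12, Hoxd1, Hoxd11, Hoxd12 and Hoxd13. Several of these are best known outside the back: Hoxa13 and Hoxd13 pattern the digits, Hoxa11 and Hoxd11 the forearm, and Hoxb13 the prostate and tail. Hoxb1, which acts in the hindbrain, was printed as 10 spots and gave a mean signal of 5.89 with FGF18 and 6.12 with PBS.

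**Figure D1:**
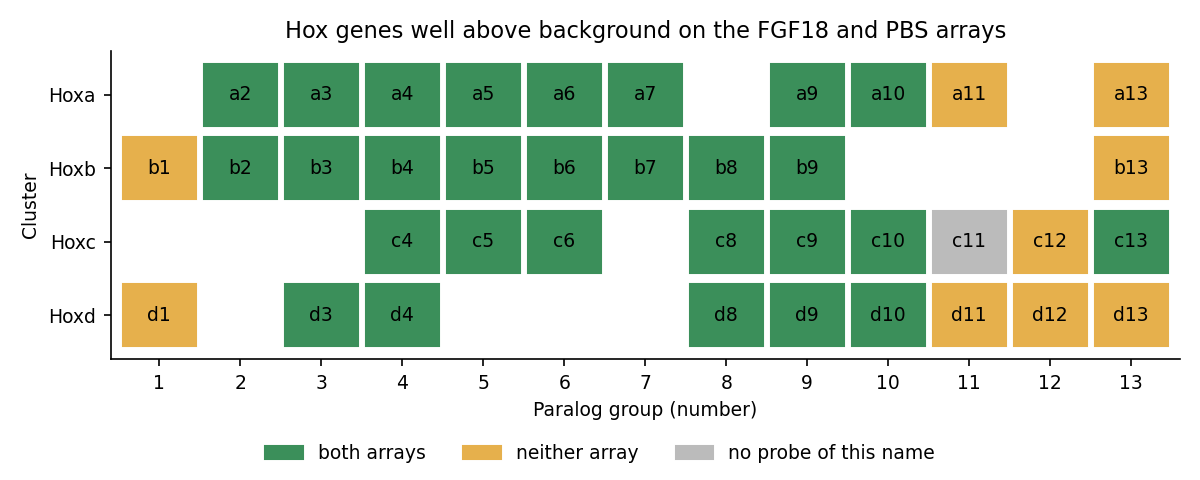
Each square is a Hox gene named in the text or Hoxc11, placed by cluster (vertical axis) and paralog group number (horizontal axis), and coloured by whether it was well above background on both arrays or on neither. All 27 genes of groups 2 to 10 are measured on both, while Hoxc13 is the 1 measured gene of groups 11 to 13.

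Signals below are the processed signals of the scanner software before scaling between arrays, and signals of different probes do not give relative transcript levels. The 35 member probes measured on both arrays spanned 51.4 to 6380 on the FGF18 array and 46.8 to 7190 on the PBS array. The 13 probes measured on neither spanned 4.76 to 28.5 on the FGF18 array and 4.93 to 19.1 on the PBS array. The lowest signal that any probe well above background reached was 23.3 with FGF18 and 24.2 with PBS. The top of the unmeasured range was Hoxd12, at 28.5 with FGF18 and 9.81 with PBS, and Hoxa11, at 26.6 with FGF18 and 10.5 with PBS. Neither probe was well above background on either array, so no fold is given. Hoxc12 and Hoxc13, adjacent genes of the cluster, differed in detection: Hoxc12 was at 6.83 with FGF18 and 6.86 with PBS, whereas Hoxc13 was at 954 with FGF18 and 804 with PBS. Whether the unmeasured probes respond to their transcripts in a tissue that makes them was not tested.

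Another 2 probes were measured on the FGF18 array alone, and 0 on the PBS array alone. The second Hoxd3 probe read 38.6 with FGF18 and 19.3 with PBS, at least 1.42-fold higher. The second Hoxa4 probe read 39.7 with FGF18 and 25.5 with PBS, 1.39-fold higher once scaled, which is a point estimate and not a lower bound. The technical errors of the log2 ratios, defined below, were 0.54 for this Hoxd3 probe and 0.47 for this Hoxa4 probe. The other probe of each gene did not share this direction once scaled, as given below, so neither gene had a settled direction.

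**Figure D2:**
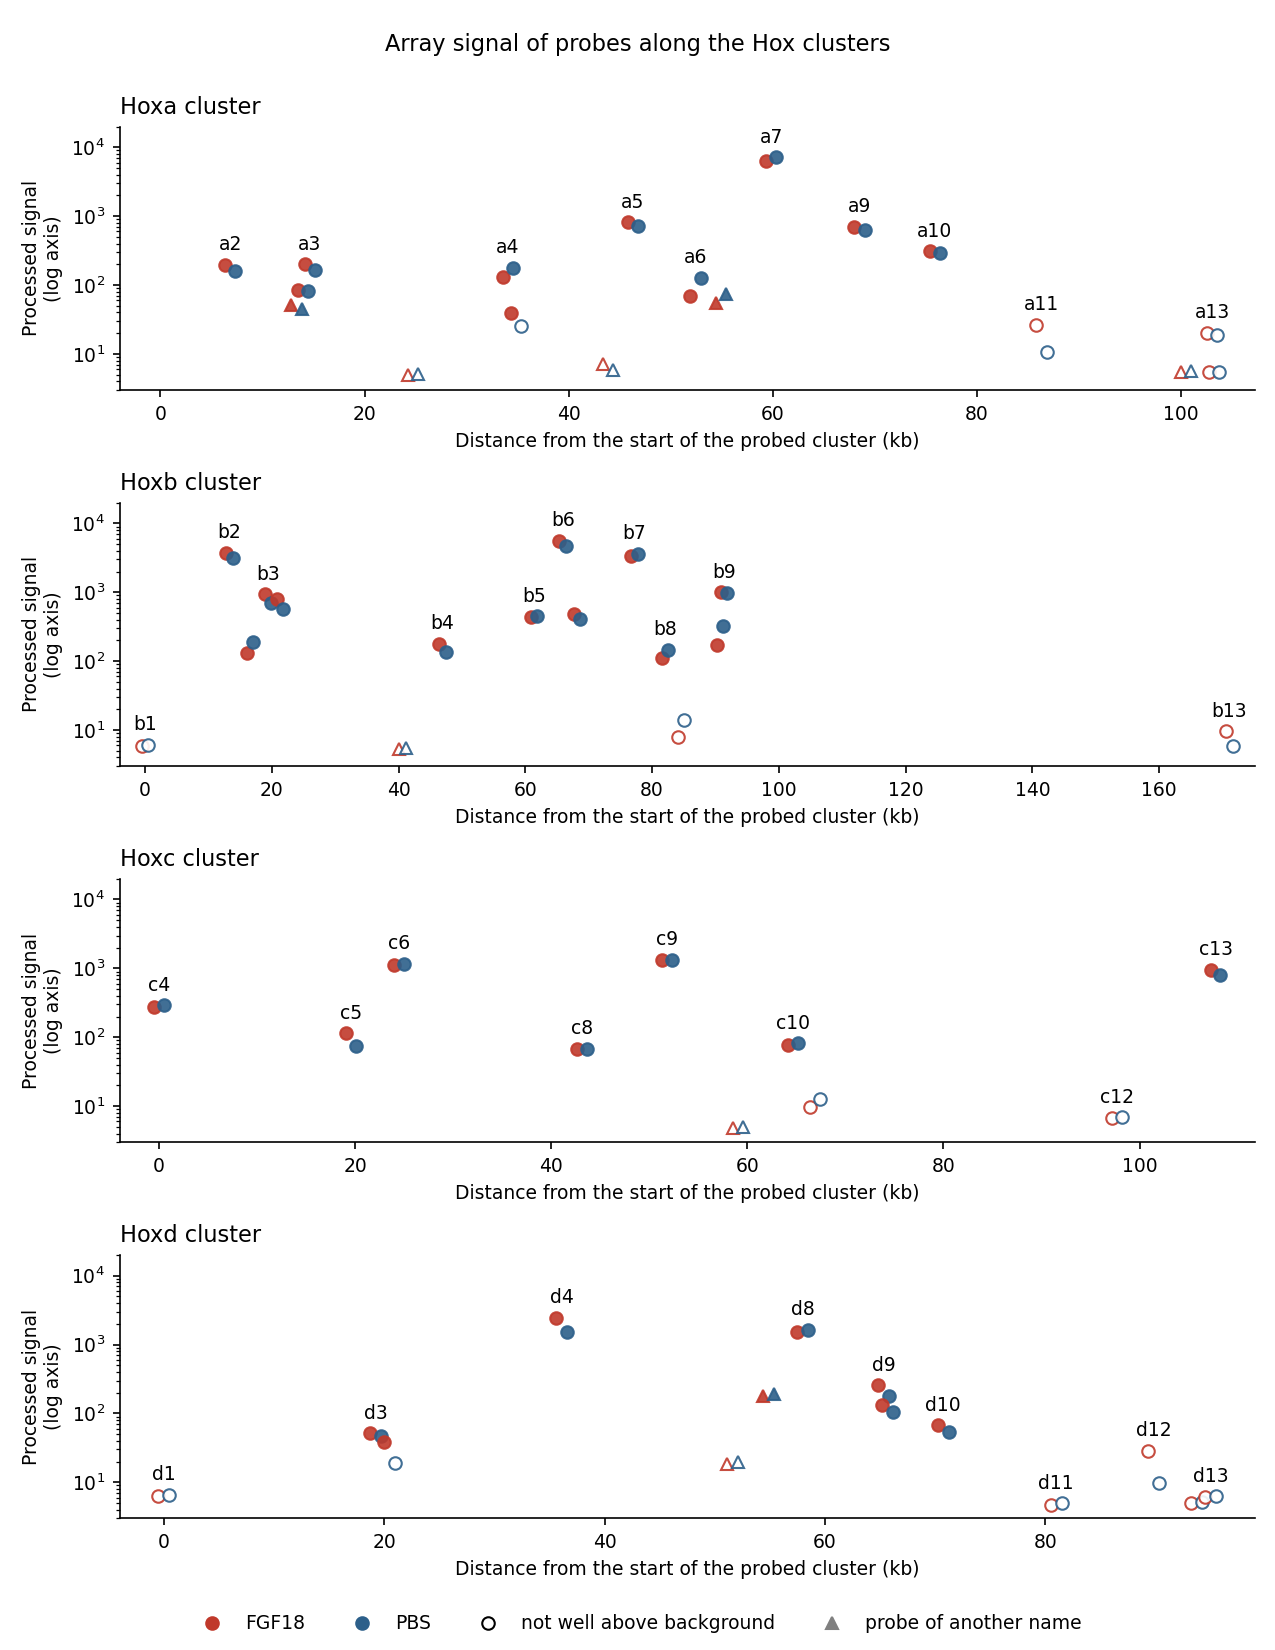
Processed signal (log axis) of each probe within a cluster against its distance in kb from the end of the probed cluster with the lowest paralog numbers, with FGF18 in red left of PBS in blue, filled symbols for probes well above background, and triangles for probes of another gene name. The Hoxa11 to Hoxa13 and Hoxd11 to Hoxd13 ends carry open symbols on both arrays, while Hoxc13 at the far end of its cluster is filled on both arrays; heights of different probes are not comparable.

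For the comparison of the arrays, log2 signals were scaled by subtracting each array's 75th percentile, a signal of 947 with FGF18 and 845 with PBS. Ratios are FGF18 minus PBS on this log2 scale. Each carries the technical error given by the scanner software's error model, with a median of 0.20 over the members. This error covers the array spot and not the spread between mice, which cannot be measured here. Probes printed as at least 8 spots gave a smaller spread, with a median SD of 0.17 for a single spot's ratio at signals under 100, 0.070 at 100 to 1000 and 0.032 above 1000.

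Most Hox genes differed little between FGF18-injected and PBS-injected skin. The 29 measured members had a median ratio of -0.11 and an SD of 0.34, against a median of -0.05 and an SD of 0.40 over the 16611 genes measured on both arrays. Relative to that all-gene median, 14 members lay above and 15 below. In all, 24 of the 29 (82.8%) lay within 0.5 of it, as did 88.8% of all genes. Between the quartiles of all genes (-0.21 to 0.11) lay 11 of the 29 (37.9%), a smaller share than that of all genes. The sign of the members' median depended on the scaling: it was 0.06 without scaling, where all genes had a median of 0.11. The members' median lay 0.05 below that of all genes in both cases by construction, because scaling shifts every ratio by the same amount.

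Hoxa6, a gene of the thoracic region, was the 1 member past a fold of 2, and it was lower on the FGF18 array. It read 68.9 with FGF18 and 128 with PBS, a ratio of -1.06 with a technical error of 0.25, or 2.08-fold lower. Its FGF18 signal lay below that of Alb, given above. Over all measured genes 0.939% were at least 2-fold lower, and 2.53% were past 2-fold either way. At least 2-fold higher were 0 members, against 1.6% of all genes. Hoxa6 has 1 probe printed as 1 spot. It was at least 2-fold lower in 4 of 9 settings, the main one included, with a ratio range of -1.06 to -0.65. Taking the brightest or the median probe of each gene cannot change a gene with 1 probe, so those passes were fixed in advance. The remaining pass, at -1.05, came from scaling to the 75th percentile of probes measured on both arrays. Hoxa6 was thus lower on the FGF18 array in each of the 9 settings, but whether it passed 2-fold depended on the processing.

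Counted by technical error instead, a measure chosen after the values were seen, 4 members lay over 2 errors above the median of all genes, where 9.63% of all genes did. They were Hoxd4, Hoxc5, Hoxb3 and Hoxd9. A further 4 lay over 2 errors below it, where 7.77% of all genes did, and these were Hoxa6, Hoxa4, Hoxb9 and Hoxb8. Each set is 13.8% of the 29 members, and no set test was made. The error of a gene with several probes treats them as independent, so it shrinks as their number grows. No single probe of Hoxb3 or Hoxd9 lay over 2 of its own errors above the median of all genes.

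**Figure D3:**
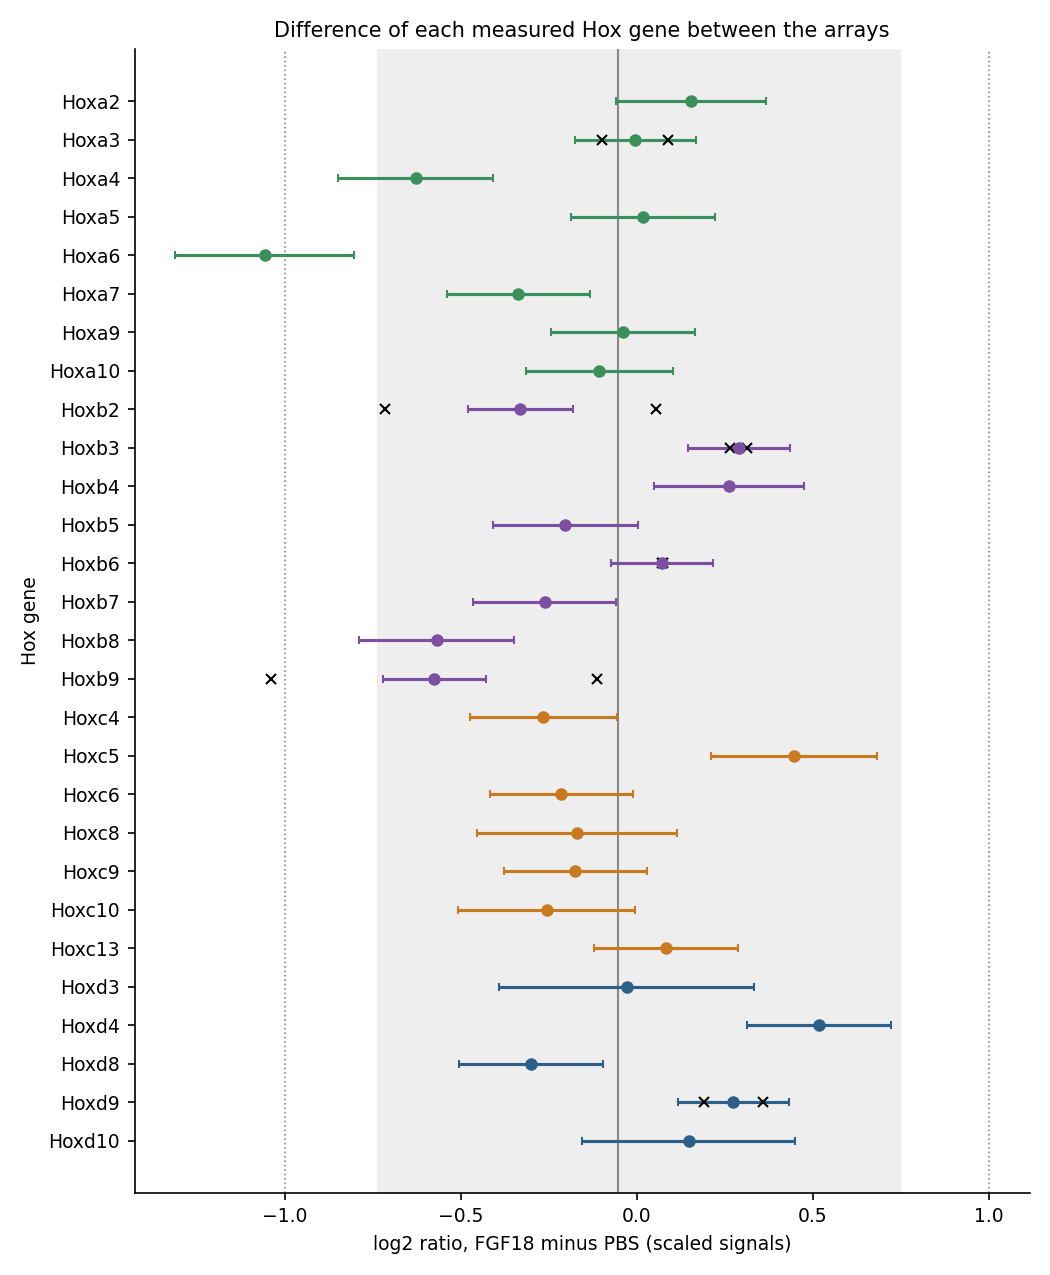
Log2 ratio, FGF18 minus PBS, of the measured Hox genes named in the text (points, coloured by cluster), with bars of 1 technical error either way and crosses for single probes where several were measured. The grey line is the median of all genes, the band holds the central 95% of all genes (-0.74 to 0.75) and dotted lines mark a fold of 2; Hoxa6 is the only gene point outside the band, and the crosses of Hoxb9 and Hoxb2 lie far apart.

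In paralog groups 2 to 5, whose genes pattern the hindbrain, neck and upper trunk, the higher ratios lay with Hoxd4, Hoxc5, Hoxb3 and Hoxb4. Hoxd4, a gene of the neck vertebrae, read 2420 with FGF18 and 1510 with PBS, a ratio of 0.52 with an error of 0.20, or 1.43-fold higher. Hoxc5 read 115 with FGF18 and 75.3 with PBS, a ratio of 0.45 with an error of 0.24. Hoxb3 had 2 probes that gave nearly the same difference. They read 930 and 802 with FGF18, against 691 and 576 with PBS, for a mean ratio of 0.29 with an error of 0.14. The file lists the dimmer of these for Hoxd3 as well, so it cannot be assigned to Hoxb3 alone. Hoxb4, known for its effect on blood stem cells, read 180 with FGF18 and 134 with PBS, a ratio of 0.26.

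Hoxa4, also of the neck and upper trunk, went the other way on its brighter probe. That probe read 129 with FGF18 and 178 with PBS, a ratio of -0.63 with an error of 0.22, while the second probe, above, was higher on the FGF18 array. The rest of these groups lay closer to the all-gene median. Hoxa2, which patterns the second pharyngeal arch, read 197 with FGF18 and 158 with PBS, at 0.15. Hoxa3, needed for the thymus and parathyroid, read 86.1 and 199 on its 2 probes with FGF18, against 82.3 and 167 with PBS. Both of its probes lay within their errors of the all-gene median. Hoxa5, with roles in lung development, read 811 with FGF18 and 715 with PBS, at 0.02. Hoxb5 read 434 with FGF18 and 446 with PBS, at -0.20. Hoxc4 read 273 with FGF18 and 293 with PBS, at -0.27. Without scaling these last ratios were -0.04 for Hoxb5 and -0.10 for Hoxc4. The first Hoxd3 probe was near the floor, at 51.4 with FGF18 and 46.8 with PBS, with a ratio of -0.03 and an error of 0.36.

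Hoxb2, a hindbrain gene, differed between its probes. The probe in the orientation of the cluster read 3710 with FGF18 and 3190 with PBS, a ratio of 0.05. The second probe carries the Hoxb2 name but lies on the opposite strand, and it read 131 with FGF18 and 192 with PBS, a ratio of -0.72 with an error of 0.22. The mean of both, -0.33, therefore joins probes of both strands. On this mean Hoxb2 is counted among the members below the all-gene median, while the probe in the orientation of the cluster lay above it.

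In paralog groups 6 to 8, genes of the thoracic trunk, 7 of 8 members lay below the all-gene median. In groups 2 to 5, 8 of 12 lay above it, and in groups 9 and 10, 3 of 7 did. These bands of groups were chosen after the values were seen and were not tested. Hoxa7, reported in human keratinocytes as a regulator of differentiation, read 6380 with FGF18 and 7190 with PBS, a ratio of -0.34. Hoxb7 read 3400 with FGF18 and 3640 with PBS, at -0.26. Both paralogs of group 7 thus lay on the same side, each by less than 2 errors.

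Hoxb8, whose loss in mice leads to excessive grooming and hair removal, read 111 with FGF18 and 147 with PBS, a ratio of -0.57 with an error of 0.22. Its second probe was not well above background, at 7.95 with FGF18 and 13.9 with PBS. Hoxc8 was nearly level, at 67.7 with FGF18 and 68 with PBS, and Hoxd8 read 1500 with FGF18 and 1650 with PBS. Their ratios were -0.17 for Hoxc8 and -0.30 for Hoxd8, each within 2 errors of the all-gene median. Hoxc6 read 1120 with FGF18 and 1160 with PBS, at -0.22. Hoxb6 was the member of these groups above the median. Its 2 probes read 5610 and 481 with FGF18, against 4760 and 409 with PBS, and both gave a ratio of 0.07.

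In groups 9 and 10, which act in the lower trunk and limbs, paralogs of 1 group lay on opposite sides. Hoxd9 was higher on both of its probes, at 257 and 133 with FGF18, against 179 and 104 with PBS, for a mean ratio of 0.27 with an error of 0.16. Hoxb9, which patterns the ribs, was lower on the mean of its probes, at -0.58 with an error of 0.15, but the 2 probes differed by 0.93 on the log2 scale. The brighter read 1000 with FGF18 and 965 with PBS, a ratio of -0.11. The dimmer read 174 with FGF18 and 319 with PBS, a ratio of -1.04, so the gene's place in the count of lower members rests on that probe. Which transcripts each probe reads was not tested.

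The other members of these groups were close to the all-gene median. Hoxa9, a regulator of blood cell progenitors, read 694 with FGF18 and 637 with PBS, at -0.04. Hoxc9 read 1330 with FGF18 and 1340 with PBS, at -0.18. Hoxa10, known for its role in the uterus, read 307 with FGF18 and 295 with PBS, at -0.11. Hoxc10 and Hoxd10, group 10 genes of the lumbar region, gave dim signals. Hoxc10 read 76.8 with FGF18 and 81.9 with PBS on its brighter probe, and its second probe was not well above background, at 9.88 with FGF18 and 12.6 with PBS. Hoxd10 read 67.6 with FGF18 and 54.5 with PBS, a ratio of 0.15 with an error of 0.30.

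Hoxc13, the hair shaft regulator, had a ratio of 0.08 with an error of 0.20. It stood beside hair genes that were lower. Of 14 genes of the hair matrix and shaft, chosen as genes studied with Hoxc13 and with earlier results of these data known, all 14 were measured, 5 were at least 2-fold lower (0.939% of all genes were) and 0 higher (1.6% of all genes were), with a median of -0.61 against -0.05 for all genes. The lowest was Krt34, a hair shaft keratin, at 224 with FGF18 and 1070 with PBS (-2.42). The highest was Krt35, another such keratin, at 72400 with FGF18 and 60900 with PBS (0.09). The other 4 past 2-fold were the keratin genes Krt33b (-1.62), Krt33a (-1.31), Krt82 (-1.30) and Krt31 (-1.03).

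Between the Hox genes lie probes of other names, described after the values were seen. The probes mapped within spans of 103 kb in Hoxa, 171 kb in Hoxb, 108 kb in Hoxc and 95 kb in Hoxd include 9 such probes, of which 3 were measured on both arrays. A probe assigned to the non-coding Hoxaas3 lies between Hoxa6 and Hoxa7 and in their orientation. It read 55.7 with FGF18 and 74.4 with PBS, a ratio of -0.58 with an error of 0.27. Whether this probe reads Hoxaas3 or other RNA of the Hoxa strand was not tested. Its neighbours Hoxa6 and Hoxa7, given above, were also lower on the FGF18 array, Hoxa7 by less than 2 errors. The next members outward, Hoxa5 at 0.02 and Hoxa9 at -0.04, were near the all-gene median. The opposite-strand Hoxaas2, beside Hoxa3, read 51.3 with FGF18 and 45.4 with PBS, at 0.01. Hoxd3os1, also on the opposite strand, read 178 with FGF18 and 189 with PBS on its measured probe, at -0.25. Of the measured members on either side of it, Hoxd8 was at -0.30 and Hoxd4 at 0.52.

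Hox cofactors and the regulators of Hox genes are given by their medians, beside -0.05 for all genes, and by their counts past 2-fold, beside 2.53% of all genes. At that share, lists of this length hold few or no such genes. All 9 genes of the Pbx, Meis and Pknox families, homeodomain proteins that bind DNA together with Hox proteins, were measured, with a median of -0.04 and 0 past 2-fold. They ran from Pbx3, at 525 with FGF18 and 593 with PBS (-0.34), to Pbx2 at 0.39. Of 24 Polycomb group genes, which keep Hox genes silent, 23 were measured, with a median of -0.03 and 0 past 2-fold, from Cbx6 at -0.37 to Bmi1 at 0.30. A list of genes taken to keep Hox genes active joined trithorax group genes, demethylases that remove the Polycomb mark and other chromatin genes such as Kansl1. All 14 of this trithorax list were measured, with a median of -0.05 and 0 past 2-fold, from Kansl1 at -0.47 to Kdm6a at 0.31.

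Of 12 other regulators on the array, among them retinoic acid receptors, 8 were measured, with a median of -0.07 and 0 past 2-fold. They ran from Cyp26b1, which degrades retinoic acid, at -0.35 to the retinoic acid receptor gene Rarb at 0.40. Of 6 ParaHox and Cdx genes, the Hox-related genes of gut and brain, only Gsx1 (0.13) and Cdx1 (0.32) were measured. Cdx1, Cdx2 and Cdx4 are counted both here and among the 12 regulators. Homeobox genes of skin and hair outside the clusters had a median of -0.17 over 18 measured of 19 on the array, and 1 was past 2-fold. It was Barx2, a hair follicle homeobox gene, at -2.01 over 3 probes that disagreed in size. Barx2 read 69.2, 82.8 and 7590 with FGF18, against 456, 460 and 9530 with PBS, for ratios of -2.88, -2.64 and -0.49. The highest of this list was Msx1 at 0.41.

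**Figure D4:**
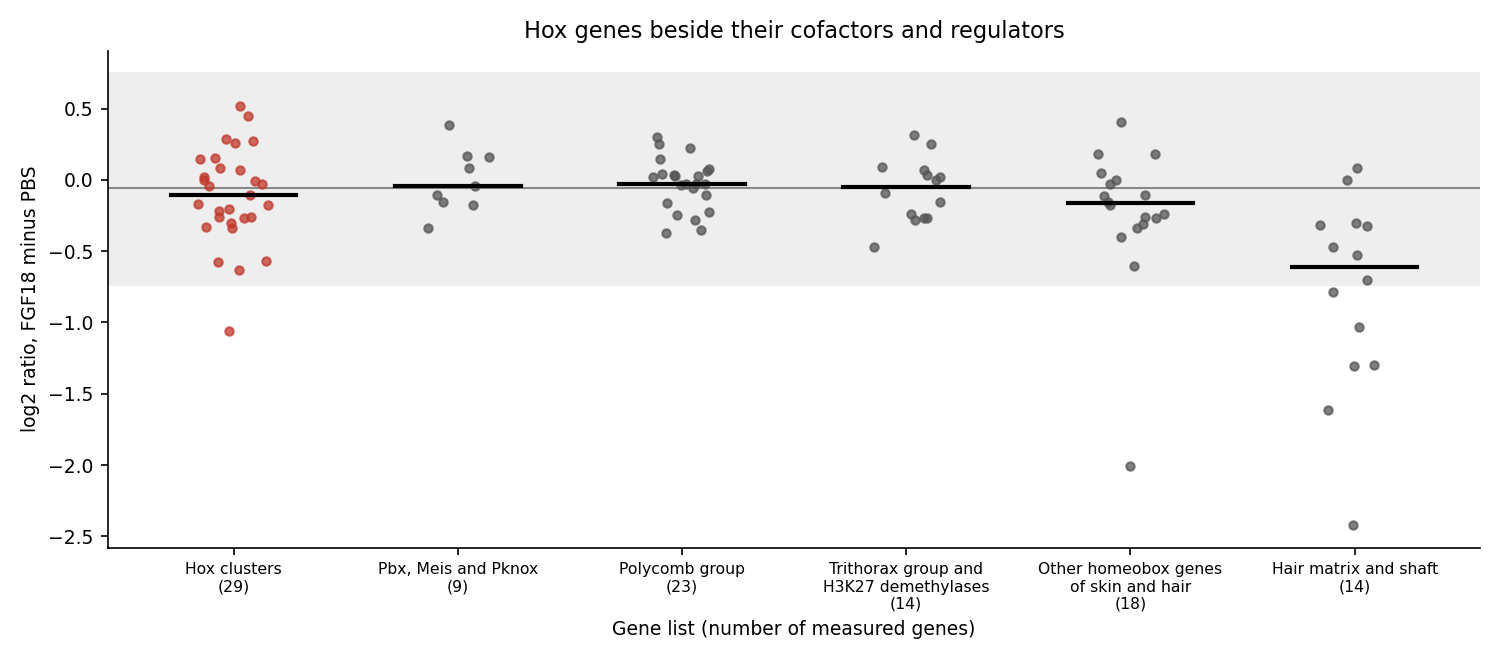
Log2 ratio, FGF18 minus PBS, of the 29 measured Hox genes and of the measured genes of 5 lists, 1 point a gene, with a black bar at each median, a grey line at the median of all genes and a band holding the central 95% of all genes. The Hox, cofactor, Polycomb and trithorax medians lie between -0.11 and -0.03, and the hair matrix and shaft median is at -0.61; the lowest homeobox point is Barx2.

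The tissue label was met by the skin markers. All 8 keratinocyte markers were measured, with a median of -0.04, from Krt10 at -0.37 to Col17a1 at 0.17, and a summed signal of 480881 with FGF18 and 462028 with PBS. Summed signals in this paragraph are before scaling, while the medians are scaled. The 75th percentile was 947 with FGF18 and 845 with PBS, so the sums alone do not give a direction. All 8 fibroblast markers lay below the all-gene median, with a median of -0.44, from Col1a2 at -0.73 to Dpt at -0.09, and a summed signal of 244498 with FGF18 and 275115 with PBS. All 8 skeletal muscle markers were measured as well, with a median of 0.22, from Myh1 at -0.19 to Myog, a muscle differentiation factor, at 1.83, and a summed signal of 502219 with FGF18 and 414989 with PBS. Adipocyte markers had a median of 0.22, from Adipoq at -0.09 to Retn at 0.37. Immune markers had a median of 0.21, from Cd3e at -0.43 to Itgam, an integrin of myeloid cells, at 1.01. Endothelial markers had a median of 0.07, from Tek at -0.10 to Kdr at 0.60. Melanocyte markers had a median of 0.41, from Mlana at 0.02 to Tyr at 0.71. Schwann cell markers had a median of -0.06, with Mbp at 0.18 the highest. The 6 measured of 7 dermal papilla markers had a median of -0.14, from Lef1 at -0.32 to Corin at 0.51. Myog and Itgam were the marker genes past 2-fold. Of 6 genes of internal organs 3 were above background, with a median of -0.14, from Sftpc at -0.45 to Alb at 0.10, and a summed signal of 175 with FGF18 and 171 with PBS over all 6. In whole skin, fewer cells of a type and less RNA per cell cannot be told apart, and which cells carry each Hox transcript, and the part of these marker differences in the Hox ratios, were not tested.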

How the data were processed

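The deposited scanner files hold, per the file headers, the spot intensity values that Feature Extraction 9.5.3.1 (Agilent; protocol GE1-v5_95_Feb07, array design 014868) wrote: a processed signal with its error, and the mean and background signals. The deposited files also hold other columns, flags for background, saturation and outliers. The deposited value table holds a ratio, the processed signal over that array's median (83.8 for FGF18 and 80.0 for PBS), checked against the scanner files with a largest log2 departure of 0.0078. The sources used here name no further scaling by the authors. Of 43379 probe spots per array, 62.4% with FGF18 and 61.5% with PBS were well above background, and 0 were saturated. All columns of sample values were mapped (0 were not).

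Here control and outlier-flagged spots were left out (with probes that then had no spot, a choice made after values were seen), log2 signals were scaled to the 75th percentile of non-control probes, spots of a probe were averaged and ratios of probes measured on both arrays were averaged per gene. A probe measured on 1 array was given as a fold over the higher of the dim signal and the floor. It was called at least that fold where the floor was the higher. Errors follow the deposited processed signal error, with the probes of a gene treated as independent. With 1 array per group there was no test, and genes were counted at 2-fold. Of the member probes, 46 were named in RefSeq (GRCm38.p6) by accession and 4 by symbol, and 0 symbols differed. The files name no genome build, so distances between probes are given without coordinates. Members measured on at least 1 array are named and, of other lists, the highest, the lowest and those past 2-fold, save items that are not reported here. Members and lists were chosen with earlier results of these data known. Python 3.11.15, numpy 2.4.6, pandas 2.3.3 and limma 3.58.1 (normexp) were used, and the ratio code was tested on simulated data. Alternatives covered scaling, background correction, the value table, filters, probes and the threshold.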

Additional observations from a re-analysis of the deposited data

How the results depend on the processing

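No paired analysis was possible because each group has 1 array. Against 1 Hox gene past 2-fold, the count was 0 with scaling to the median, without scaling, with quantile normalization, with normexp, with the value table and with a signal over 100 on both arrays. It was 3 without a filter on dim probes, which adds Hoxa11 and Hoxd12, neither well above background on either array. At a fold of 1.5 it was 2, Hoxa6 and Hoxa4. The filter over 100 leaves Hoxa6 out by construction. Hoxa6 lay at -0.96 with scaling to the median and with the value table, and at -0.89 without scaling. With quantile normalization it lay at -0.99 and with normexp at -0.65, and why normexp gave the smaller difference was not tested. The median of the members ran from -0.17 (normexp) to 0.06 (no scaling), and its distance to the all-gene median from -0.09 to 0.04. The count of measured genes was 38 without a filter, 28 with RefSeq mRNA probes alone, 25 with all probes required, 23 with signals over 100 and 29 in the other settings. Of 232 single-gene values over 8 settings, 8 moved by more than their error. Several ratios changed sign between settings, among them those of Hoxb2 (-0.33 to 0.05) and Hoxd10 (-0.10 to 0.31). Hoxa6, the 1 member past 2-fold, kept its sign. Signals near the floor limit what the dim members can show.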
